A study of Mus musculus with 16 samples.

Results

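The mouse p200 family, also called the HIN-200 or PYHIN family, was followed through single-cell RNA of 2208L mammary tumors and of bone marrow (BM). Members were the rows of the count matrices with the symbols Ifi202b, Ifi203, Ifi204, Ifi207, Ifi209, Ifi211, Ifi213 and Mndal, which gave 8 of 32286 rows in each of 16 libraries. p200 proteins carry a DNA-binding HIN domain, and most also carry a pyrin domain through which such proteins assemble. They are made after interferon reaches a cell, when transcription factors bind response elements near their genes, and they are known from work on cytosolic DNA sensing, inflammasomes and myeloid differentiation. Macrophages, monocytes and dendritic cells are the cells in which the family is best known.

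All mice were female and of the BALB/c strain. 2208L is a transplantable Trp53-null mammary tumor line kept by implanting tumor pieces, so every tumor descended from 1 line. IACS-70654 is an oral inhibitor of the bromodomain shared by the coactivators CBP and P300, and per the study treatment lasted 7 days for tumors and 6 days for BM. Tumors came from mice given vehicle, IACS-70654, anti-PD1 antibody, or IACS-70654 and anti-PD1 together, with 1 library per condition. BM came from mice labelled ctrl, which per the study were untreated and carried no tumor, and from 2208L-bearing mice given vehicle or IACS-70654. BM cells were sorted as CD45+ Ter119- cells or as Lin- c-Kit+ hematopoietic stem and progenitor cells (HSPCs), with 2 libraries for each of the 3 groups. Each library pooled cells of 3 mice, and nothing states that the 2 libraries of a group came from different mice, so their spread may be technical.

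Counts are of unique molecular identifiers (UMIs), 1 per captured molecule at its 3′ end. Totals ran from 15590289 to 68415534 UMIs per library. After filtering, 31191 CD45+ cells, 28155 HSPCs and 13830 tumor cells remained. Cells were clustered within each sort and clusters were named from marker lists, which left 3092 cells unnamed. A level is given in CPM, a member's UMIs in all cells of 1 class and library for each 1000000 UMIs of those cells. No cell barcode was shared between libraries of a sort, and no library was left out.

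The family sits in 1 gene cluster. On the GRCm38 annotation the 8 genes lay within 416.5 kb of chromosome 1, chr1:173566283-173982744, with Ifi209 on the plus strand and the other 7 on the minus strand. From left to right the order was Ifi213 (ENSMUSG00000073491), Ifi209 (ENSMUSG00000043263), Ifi207 (ENSMUSG00000073490), Ifi204 (ENSMUSG00000073489), Mndal (ENSMUSG00000090272), Ifi211 (ENSMUSG00000026536), Ifi203 (ENSMUSG00000039997) and Ifi202b (ENSMUSG00000026535). Ifi208 lay between Ifi209 and Ifi207. Aim2, Ifi206 and Ifi214 lay before the members, and Ifi205 lay after them. The gene model of Mndal, chr1:173849126-173942491, overlapped those of Ifi211 (chr1:173896345-173913046) and Ifi203 (chr1:173920407-173942672) on the same strand, so reads of the 3 cannot always be told apart.

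Some members share 3′ sequence with other genes of the cluster, which bears on 3′ counts. Of the 50-base windows in the last 500 bases of the transcripts, none for Ifi202b, 1.77% for Ifi204 and 3.54% for Ifi207 also occurred in another gene. The share was 9.1% for Ifi203, 18.7% for Ifi213 and 25.9% for Mndal, which shared windows with Ifi211, Ifi205, Ifi204 and Ifi203. It was 47.8% for Ifi209, all of it with Ifi214, and 77.4% for Ifi211, all of it with Ifi205 and part of it also with Mndal. Values of Ifi209 and Ifi211 are therefore uncertain, and those of Ifi202b, Ifi204 and Ifi207 are the best separated. The reference is of C57BL/6J mice and the samples were of BALB/c mice, and how strain differences in this cluster affect the counts was not tested.

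Promoters were looked at because the members share a response to interferon. RefSeq promoters of GRCm38.p6, from 250 bases before to 50 bases after a transcription start, were matched for 7 of the 8 members, with 9 starts in all. Ifi204 was not matched. The core of the interferon-stimulated response element (ISRE), GAAANNGAAA on either strand, was found in 5 of the 7 members, counted at any start. Of all 32851 promoters, each counted singly, 3.44% held it. The core was found for Ifi203, Ifi207, Ifi211, Ifi213 and Mndal, and its letters were not in the windows of Ifi202b and Ifi209. For Ifi203 it was in the window of start 2 and not in that of start 1. Ifi205, Ifi206, Ifi208 and Ifi214 also held it and Aim2 did not. The core of the gamma-activated sequence (GAS), TTCNNNGAA, which 8.3% of promoters held, was found in Ifi202b among the members. The PU.1 core GAGGAA, which 28.3% held and which here overlapped the ISRE core, was found in Ifi213 among the members, and the CRE core TGACG, which 20.8% held, was found in no member.

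The stretches below carry the ISRE core matches, in capitals, within 30 bases of each promoter. They are printed to show how alike the members are at this element, and each is read 5′ to 3′ on the gene's own minus strand. The stretch of Ifi203, at its start 2, is chr1:173942508-173942537 and that of Ifi207 chr1:173741831-173741860. That of Ifi211 is chr1:173913064-173913093 and that of Ifi213 chr1:173599326-173599355. Mndal has 2 starts, with stretches at chr1:173880204-173880233 and chr1:173879993-173880022.
Ifi203: aagagctgggGAAATCGAAAgctatgaaca
Ifi207: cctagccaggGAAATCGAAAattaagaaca
Ifi211: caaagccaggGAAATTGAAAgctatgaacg
Ifi213: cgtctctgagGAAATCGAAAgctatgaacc
Mndal, start 1: aagagctgggGAAATCGAAAgctatgaaca
Mndal, start 2: ttttgagtcaTTTCTCTTTCtactcaaaac
The Ifi203 stretch and the first Mndal stretch were identical over all 30 bases. The Ifi203 stretch shared 24 bases with Ifi211, 23 with Ifi213 and 22 with Ifi207. The second Mndal stretch holds the core on the other strand and matched the others at 4 to 6 bases.

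The question was where the members are made and whether they move together. Levels are a description here, since classes were built by clustering the same cells. In CD45+ BM cells, Ifi202b, Ifi204, Ifi207 and Ifi211 were highest in monocytes, at 161 ± 7.32, 112 ± 5.18, 112 ± 11.4 and 62.6 ± 6.32 CPM (mean ± SD, n = 6 libraries). For each of these 4 the next class was plasmacytoid dendritic cells (pDCs), the main makers of type I interferon. Their means were 17.5 CPM for Ifi202b, 45.8 for Ifi204, 47.8 for Ifi207 and 19.7 for Ifi211. Libraries of pDCs ran from 3.76 to 34.0 CPM for Ifi202b and from 11.3 to 83.9 for Ifi207. For all 4 members the highest pDC library was of the IACS-70654 group, and pDCs overlapped the class below them. Ifi203 was high in lymphoid cells and in monocytes and low in neutrophils. Its mean level was 279 ± 33.7 CPM in T and NK cells, 248 ± 106 in pDCs, 224 in monocytes, 200 in stem and multipotent cells and 183 ± 17.2 in B-lineage cells, and neighbors in that order overlapped between libraries. In pDCs it ran from 141 to 403 CPM and was highest in the IACS-70654 libraries, on which their place in this order depends.

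Over the 3 groups Mndal was highest in pDCs at 612 ± 201 CPM and in monocytes at 583 ± 107, which overlapped, and in ctrl it was higher in monocytes, at 589 and 566 against 474 and 482 in pDCs. These were followed by T and NK cells at 324, stem and multipotent cells at 314 and B-lineage cells at 236. Ifi209 was highest in B-lineage cells at 92.3 ± 32.6 and monocytes at 90.0 ± 11.2, which overlapped too, then in pDCs at 63.6, T and NK cells at 43.4 and stem and multipotent cells at 21.3. Neutrophils held little of the family. Means in the neutrophil classes ran from 1.4 to 3.8 CPM for Ifi203 and from 4.7 to 9.6 for Mndal, whereas neutrophil progenitors had 11.2 and 19.2. Ifi202b had 8.86 CPM in mature neutrophils and 0.955 in cycling preNeu. Ifi213 stayed at or below 6.5 CPM in every class and library and was at 0 in most.

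**Figure D1:**
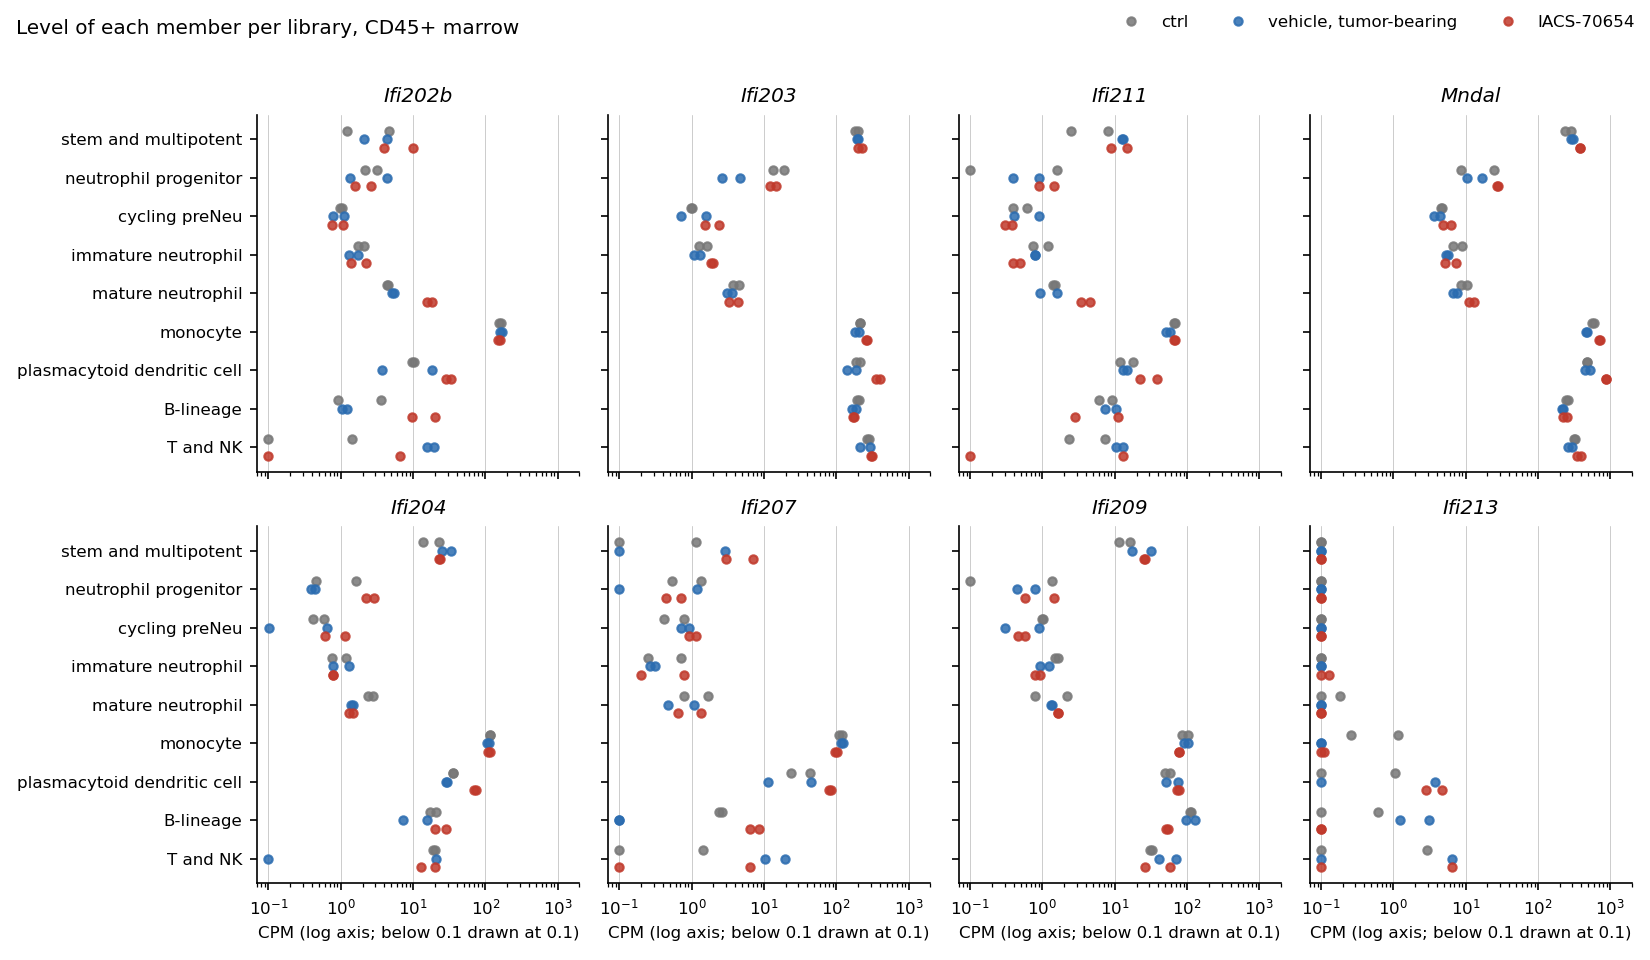
Level of each member in classes of CD45+ BM cells (CPM, log axis), with 1 point per library and color for the group. Ifi202b, Ifi204, Ifi207 and Ifi211 peak in monocytes, whereas Ifi203, Ifi209 and Mndal are also high in lymphoid cells, and all are low in neutrophils.

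In HSPCs, Ifi202b was highest in monocyte progenitors at 57 ± 9.97 CPM and had 9.81 in neutrophil progenitors. Ifi203 was highest in lymphoid-primed progenitors at 304 ± 42.8, then in stem and multipotent cells at 175 ± 16.9 and monocyte progenitors at 98.2, and lowest in erythroid cells at 24.1. Mndal had 403 ± 45.1 CPM in lymphoid-primed progenitors, 233 ± 44 in monocyte progenitors and 225 in stem and multipotent cells. Ifi209 was highest in monocyte progenitors at 49.9 ± 6.93. Ifi204 was at 24.1 in lymphoid-primed and 20.1 in monocyte progenitors, and Ifi211 at 13.8 and 15.1, which overlapped for both. Ifi207, which reached 112 CPM in BM monocytes, had a mean of at most 3.19 CPM in any HSPC class, with a highest library of 5.76.

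Likeness between members was measured as Pearson's r of log2(CPM + 1) over 130 class-by-library values, which share libraries and depth and are no independent samples. Mndal and Ifi203 were each other's most similar gene among 8895 genes (r = 0.96). The same pair had r = 0.98 in CD45+ cells, 0.86 in HSPCs and 0.96 in tumors. The gene models of this pair overlap on the same strand and share some end sequence, so their reads cannot always be told apart. The part of such reads in the likeness of the pair was not tested. Ifi204 and Ifi211 were also each other's first (r = 0.9185), followed for both by Ifi44 and Ifi44l, which are interferon-response genes. Ifi207 was closest to Fcgr1, the high-affinity IgG receptor (0.9336), then to Ms4a6d. Ifi202b was closest to Ms4a6d (0.8907), Lrp1 and Ifi207 (0.8863). Ifi209 was closest to Irf8 (0.8653), a transcription factor of monocytes, dendritic cells and B cells, then to Arl5c and Pou2f2. The genes after Mndal for Ifi203 were Adamts6 (0.89) and Cox7a2l, and those after Ifi203 for Mndal were Irf8 (0.88) and Rftn1. The least similar pairs were Ifi202b with Ifi203 (0.423), Ifi203 with Ifi207 (0.435) and Ifi202b with Mndal (0.476). For Ifi202b with Ifi203, r was 0.45 in CD45+ cells, 0.20 in HSPCs and 0.80 in tumors. Ifi213 was too low to be ranked, at a mean of 0.457 CPM.

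In tumors the question was which cells changed the family under IACS-70654. The clearest difference was in tumor epithelial cells, where 7 of the 8 members were higher with IACS-70654 than with vehicle. Ifi202b went from 17.8 to 124 CPM, Ifi203 from 14.5 to 108, Mndal from 13.8 to 94.1, Ifi204 from 9.59 to 52.1, Ifi207 from 12.4 to 37.8, Ifi211 from 4.25 to 24.7 and Ifi209 from 2.20 to 8.91. As log2 ratios with exact 95% intervals, which cover counting error only, these were 2.81 (2.53 to 3.09) for Ifi202b, 2.90 (2.60 to 3.23) for Ifi203 and 2.77 (2.45 to 3.10) for Mndal. They were 2.44 for Ifi204, 1.60 for Ifi207, 2.54 for Ifi211 and 2.02 for Ifi209. Ifi213 had 11 UMIs with vehicle and 26 with IACS-70654 and was not compared. There was 1 library per condition and no test between conditions was run. The ratios are over the whole class, whose clusters differed in share between the tumors. A gene was counted as past the fold at a log2 ratio over 0.5 in size and at least 50 UMIs in the 2 libraries. By that rule, 14.8% of all genes compared in these cells were higher.

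The same 7 members were higher in tumor epithelial cells with IACS-70654 and anti-PD1 than with anti-PD1 alone, a comparison that shares no library with the first. Ifi202b went from 12.6 to 171 CPM, a log2 ratio of 3.77 (3.48 to 4.06), Ifi203 from 9.90 to 124 (3.65) and Mndal from 10.6 to 108 (3.35). Ifi204 went from 5.74 to 55.9 (3.28), Ifi211 from 2.93 to 27.2 (3.21), Ifi207 from 6.48 to 35.9 (2.47) and Ifi209 from 1.47 to 3.39 (1.21). Here 15.0% of all genes were higher. The median over the 7 was 2.54 in the first comparison and 3.28 in this one, and that over all genes was 0.12 and 0.06. Ifi209 was the member with the smallest change in the second comparison and Ifi207 in the first. Without the top 5% of doublet scores the ratios of 6 of the 7 members ran from 3.14 to 4.07 and from 3.40 to 4.45. Those of the remaining member are not given here.

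**Figure D2:**
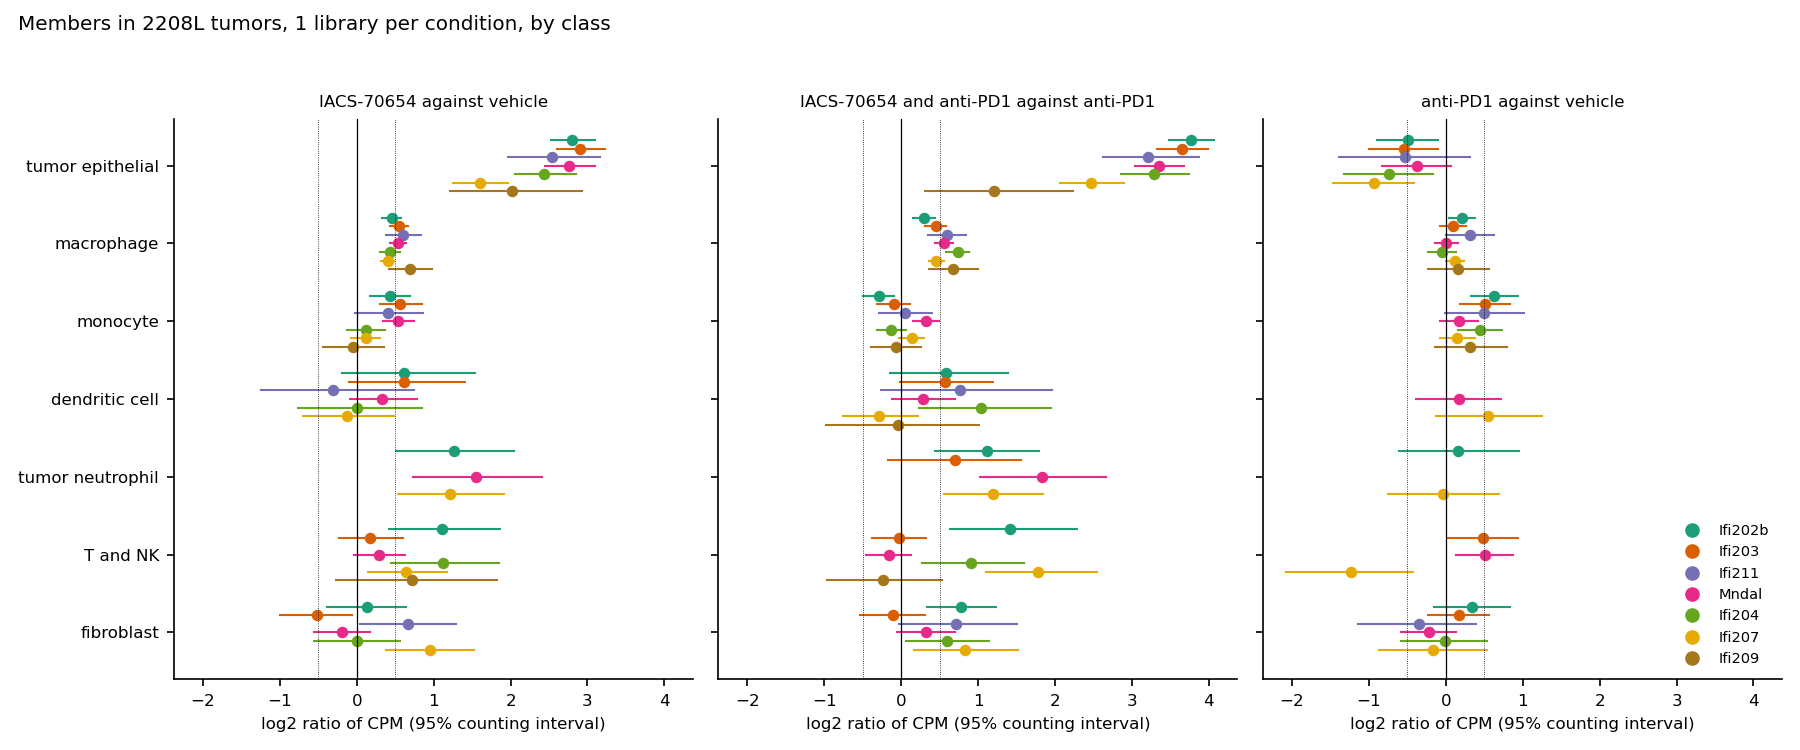
Log2 ratio of CPM in tumor classes for each member with at least 50 UMIs in the 2 libraries, IACS-70654 against vehicle, both drugs against anti-PD1 and anti-PD1 against vehicle, with exact 95% intervals that cover counting error only and dotted lines at -0.5 and 0.5. In the first 2 comparisons, ratios in tumor epithelial cells, from 1.21 to 3.77, lie above those in macrophages, from 0.30 to 0.73.

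Tumor epithelial cells held RNA of macrophages too, which had to be set beside these levels. In macrophages of the same libraries the members were abundant, so their level in tumor epithelial cells was expressed as a percentage of that in macrophages. For Ifi202b it was 13% with vehicle, 66.1% with IACS-70654, 7.92% with anti-PD1 and 87.9% with both. For Ifi203 it was 10.1%, 52.0%, 6.5% and 59.8% in that order, and for Mndal 7.08%, 33.3%, 5.42% and 37.5%. The macrophage marker C1qa stood at 5.2%, 5.01%, 1.63% and 3.86%, and Adgre1 at 4.98%, 5.23%, 1.85% and 2.85%. These 2 markers were nearly level between vehicle and IACS-70654 and higher with both drugs than with anti-PD1. Over the 9 macrophage genes looked at besides Cd74, levels ran from 4.36% to 5.88% with vehicle, 4.73% to 7.93% with IACS-70654, 0.921% to 2.20% with anti-PD1 and 2.85% to 4.24% with both. Mertk was among those that were higher with IACS-70654, at 5.08% and 7.93%, as were Lyz2, at 4.88% and 6.17%, and Ctss, at 4.36% and 5.88%. Ifi209 went from 8.17% to 20.4% with IACS-70654, but with both drugs against anti-PD1 only from 4.86% to 7.05%, a smaller step than that of either marker. Cd74, which macrophages share with other antigen-presenting cells, stood at 3.67%, 8.38%, 2.07% and 6.21%. Ifi207, the member highest in macrophages, went from 4.35% to 10.0% and from 2.08% to 8.43%. Its 4.35% with vehicle was below C1qa and Adgre1, and its 2.08% with anti-PD1 was just above both.

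**Figure D3:**
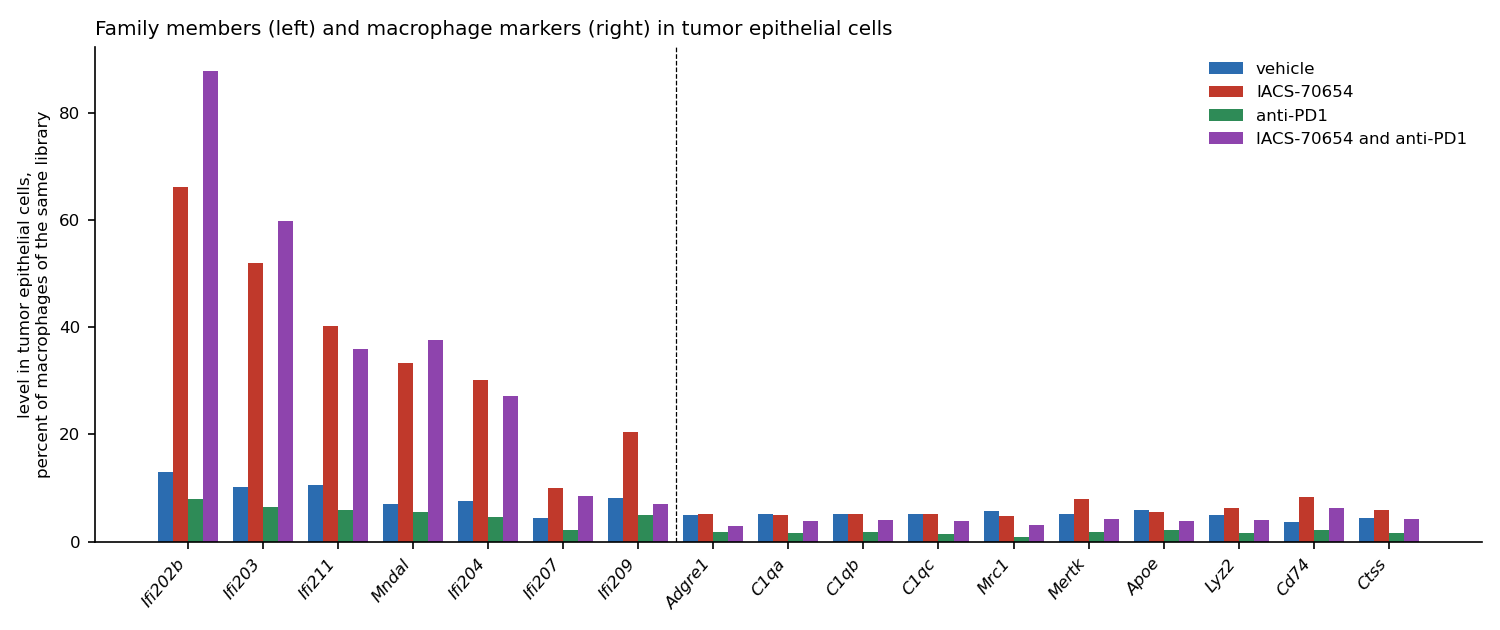
Level in tumor epithelial cells as a percentage of the level in macrophages of the same library, for members and for macrophage genes, in 4 tumors. Ifi202b reaches 66.1% with IACS-70654 and 87.9% with both drugs, whereas C1qa lies between 1.63% and 5.2%. C1qa was higher with both drugs than with anti-PD1, and some other macrophage genes were higher with IACS-70654 than with vehicle.

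Shares of cells gave the same picture. After each cell was thinned to 2000 UMIs, Ifi202b was found in 3.12% of tumor epithelial cells with vehicle (exact 95% interval 1.62% to 5.38%), 14.1% with IACS-70654 (11.8% to 16.7%), 2.29% with anti-PD1 (1.15% to 4.05%) and 17.8% with both drugs (15.7% to 20.1%). In macrophages it was found in 19.7%, 28.6%, 22.1% and 30.3%. Mndal was found in 3.12%, 8.31%, 1.46% and 11.2% of tumor epithelial cells. Unthinned shares of Ifi202b were 9.07% and 38.2% with vehicle and IACS-70654, at medians of 15400 and 14300 UMIs per cell. As a measure of macrophage RNA in these cells, Adgre1 was found in 2.08%, 1.86%, 1.04% and 1.15% of tumor epithelial cells in the same order. C1qa, found in 96.4% of macrophages with vehicle, was found in 17.9%, 22.6%, 12.7% and 19.8%. Adgre1 itself was found in 42.6%, 27.7%, 37.9% and 29.8% of macrophages, so its share does not stand for a fixed amount of macrophage RNA, and the part of that RNA in the low shares with vehicle and anti-PD1 was not tested. At least 2 members were found in 2.86% of thinned tumor epithelial cells with vehicle and 11.5% with IACS-70654. With anti-PD1 and with both drugs the shares were 2.49% and 15.1%.

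Tumor epithelial cells fell into several clusters, and which of them held the cells differed between tumors. The vehicle tumor had 137 cells in cluster 5, 135 in cluster 6, 49 in cluster 18, 28 in cluster 8, 28 in cluster 15 and 20 in cluster 11. The IACS-70654 tumor had 259, 167, 2, 157, 77 and 124 in the same clusters. Within clusters 5, 6 and 11 Ifi202b, Ifi203, Ifi207 and Mndal were still higher, with intervals above 0, whereas in cluster 5 those of Ifi204 (1.05, -0.42 to 2.83) and Ifi211 (0.12, -2.11 to 2.75) held 0. In cluster 5, led by Cpm and Igfbp5, Ifi202b went from 1.51 to 15.9 CPM and Mndal from 2.01 to 13.7. In cluster 6, led by the secreted proteins Lcn2 and Slpi, Ifi202b went from 8.05 to 50.6 CPM and Mndal from 6.54 to 35.5. In cluster 11, led by the keratins Krt17 and Krt8 and the interferon-inducible Gbp4, Ifi202b, Ifi203 and Ifi204 had their highest level of the 5 clusters compared in both tumors, with Ifi202b at 139 and 482 CPM, Ifi203 at 86.6 and 438 and Ifi204 at 57.8 and 205. Mndal was at 78.0 and 374 there and, with vehicle, higher in cluster 15, at 96.6. Cluster 11 rested on 20 cells with vehicle. With IACS-70654 its 124 cells held 1023 UMIs of Ifi202b, against 58, 117, 215 and 88 in clusters 5, 6, 8 and 15. For Mndal it held 794, against 50, 82, 114 and 110, and for Ifi207 233, against 149 in cluster 15. Ratios of the whole class therefore mix changes within clusters with changes in the share of clusters. In cluster 8, led by Ptprz1, ratios ran from 0.99 for Ifi203 to 1.78 for Mndal and 3.37 for Ifi211, the last on 1 UMI with vehicle (0.83 to 8.70), and Ifi207 was 11.1 CPM with vehicle and 6.67 with IACS-70654 (log2 ratio -0.73, interval -2.10 to 0.88). In cluster 15, led by Ptn and Krt19, Ifi207 was highest, at 113 and 155 CPM, Ifi202b was 88.5 and 91.4 CPM (0.05, -0.55 to 0.67) and Ifi203 was 56.3 and 99.7 (0.82, 0.13 to 1.58). Macrophage RNA was not measured cluster by cluster, and its part in these levels was not tested. With both drugs against anti-PD1, Ifi207 in cluster 8 was lower, 8.48 against 23.3 CPM (-1.46, -2.29 to -0.58), while Ifi202b there was higher, 75.4 against 30.7. The intervals of Ifi204 (0.81, -0.02 to 1.76), Ifi211 (0.52, -0.49 to 1.71) and Mndal (0.35, -0.29 to 1.05) held 0 there. A cluster of 26 and 51 cells led by Krt14 and Krt6a occurred only in the 2 tumors given IACS-70654 and could not be compared.

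**Figure D4:**
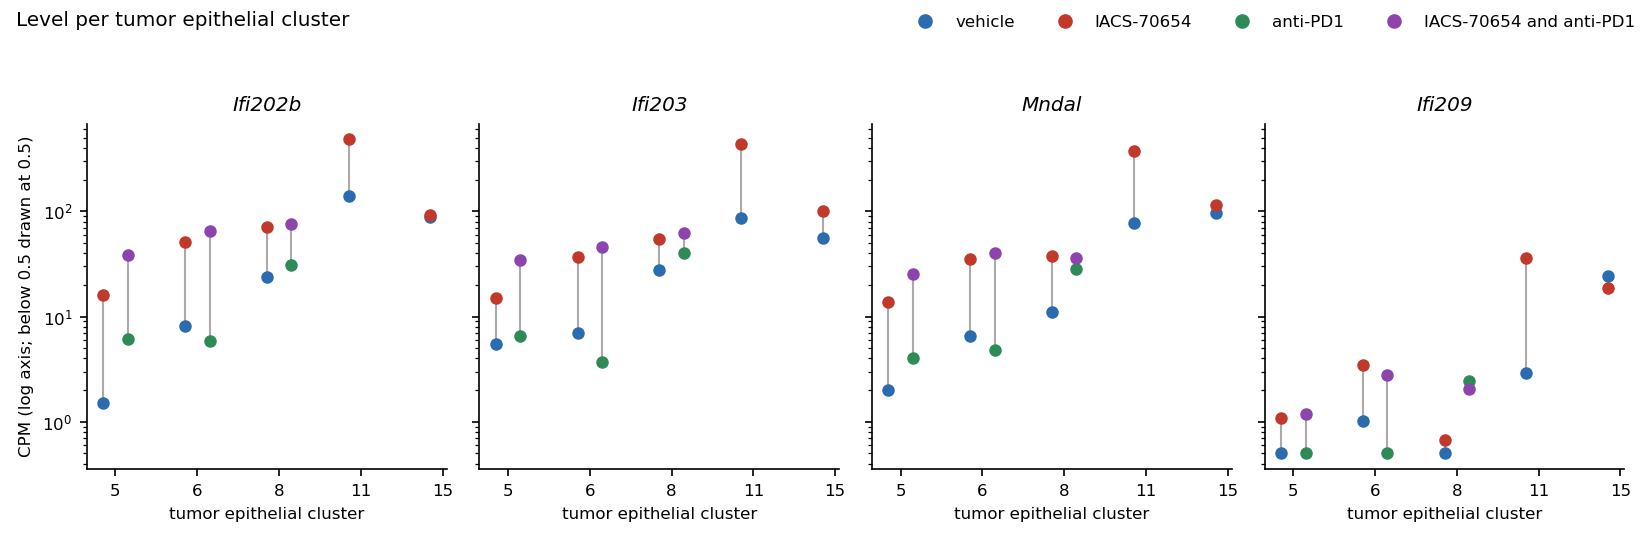
Levels of members in clusters of tumor epithelial cells (CPM, log axis), with a point for each tumor. In clusters 5, 6 and 11 Ifi202b and Mndal were higher with IACS-70654, and in cluster 15 Ifi202b was at 88.5 and 91.4 CPM.

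The wider interferon program moved in the same cells. Of 38 interferon-response genes outside the family, 37 could be compared, and 35 were higher and none lower in tumor epithelial cells with IACS-70654, with a median log2 ratio of 1.57. Cmpk2 had the largest ratio, 3.31 (3.62 to 36.0 CPM), and Ddx58, which encodes the RNA sensor RIG-I, the smallest, 0.52. With both drugs against anti-PD1, 36 were higher and none lower, with a median of 1.73, from Ifit3 at 4.39 (4.28 to 89.4 CPM) to Ifitm3 at 0.64. Over all genes in these cells 14.8% were higher and 7.34% lower in the first comparison, and 15.0% and 9.01% in the second. Of 13 interferon receptor and transducer genes, 6 were higher and 1 lower in each. Socs1, a feedback inhibitor, led the second at 1.70, whereas the receptor chain Ifngr2 was lower at -0.62 and -0.61. Of 11 DNA sensing and inflammasome genes compared, 6 were higher with IACS-70654 and 5 with both drugs, and none lower. Il18, an inflammasome substrate, had the largest ratio in both, at 2.11 and 4.52. Neither drug target, Crebbp nor Ep300, was past the fold in these cells. In BM, Crebbp rose in basophil and mast cell progenitors of HSPCs (0.58 ± 0.10, edgeR, adjusted p = 3.36e-06) and Ep300 in megakaryocyte cells (0.78 ± 0.16, adjusted p = 0.000176), where 4.21% and 2.28% of genes rose. By less than 0.5, Crebbp was also higher at an adjusted p under 0.01 in other HSPC classes. The change was 0.445 in megakaryocyte, 0.360 in neutrophil progenitor, 0.279 in stem and multipotent, 0.249 in erythroid and 0.185 in monocyte progenitor cells. Ep300 was lower in CD45+ mature neutrophils (-0.162).

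Other genes of the cluster, and interferon itself, were scarce. Aim2, which encodes the DNA sensor of an inflammasome, went from 2.67 to 4.70 CPM in tumor epithelial cells (0.81) with IACS-70654. Ifi205 went from 0.629 to 9.56 CPM (3.93), and Ifi214 from no UMI to 5.75 CPM, at least 12.2-fold higher against a floor of 3 counts in the vehicle library. With both drugs, Ifi205 went from 0.611 with anti-PD1 to 8.15 CPM (3.74) and Ifi214 from 0.244 to 2.84 CPM (3.54, counting interval 1.62 to 6.62, from 2 and 52 UMIs), and Aim2 stayed within the fold. These values of Ifi205 and Ifi214 share reads with Ifi211 and Ifi209. Of the 9 interferon genes listed, only Ifnb1, which encodes interferon-beta, had UMIs enough to compare in tumor epithelial cells, and only with both drugs against anti-PD1. Its 81 UMIs with both drugs all came from 1 of 1226 cells, and tumor epithelial cells of the other 3 libraries had none, so no fold is read from it.

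With anti-PD1 alone, 4 members were past the fold in tumor epithelial cells, all of them lower. Against vehicle the log2 ratio was -0.94 for Ifi207 (-1.47 to -0.42), -0.74 for Ifi204, -0.55 for Ifi203 and -0.53 for Ifi211. With anti-PD1 these rested on 53, 47, 81 and 24 UMIs in that order, so the ratio of Ifi211 is the least certain. All 4 ratios were past the fold, where 3.74% of genes were lower. Mndal was at -0.38 and Ifi202b at -0.50, short of it. Macrophage markers in these cells were lower too, with C1qa at 5.2% and 1.63% of the macrophage level, and their part in the difference was not tested. The Ifi207 ratio was 0.23 without the top 5% of doublet scores. Of 37 interferon-response genes, none was higher and 7 were lower. Over 7 tumor classes, 9 of 33 member-by-class ratios (27.3%) were past the fold with anti-PD1, 4 higher and 5 lower, where 12.2% of all gene-by-class ratios were past it in either direction.

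Macrophages held 62.3% of the family's UMIs in the named classes with vehicle, 58.6% with IACS-70654, 48.7% with anti-PD1 and 52.4% with both drugs. Ratios in them were nearer to 0. With IACS-70654 against vehicle, Ifi203 went from 143 to 209 CPM (0.55, 0.43 to 0.67), Ifi209 from 26.9 to 43.6 (0.70), Ifi211 from 40.3 to 61.4 (0.61) and Mndal from 195 to 283 (0.53). Ifi202b, at 137 and 188 CPM, Ifi204, at 128 and 173, and Ifi207, at 286 and 378, had ratios of 0.40 to 0.46. With both drugs against anti-PD1, 4 of 7 were past the fold, Ifi204 (0.73), Ifi209 (0.67), Ifi211 (0.59) and Mndal (0.55), and with anti-PD1 alone none. Of all genes, 8.10% and 8.21% were higher in the first 2 comparisons. Of 38 interferon-response genes, 20 were higher and 1 lower in macrophages with IACS-70654, where 1017 of 10439 genes were lower.

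Cluster 9 of the macrophages was led by interferon-response genes such as Cxcl10, Rsad2 and Ifit3, with Ifi209 among its leading genes. It held 19 of 646 macrophages with vehicle, 155 of 2398 with IACS-70654, 20 of 476 with anti-PD1 and 218 of 2297 with both drugs. In that cluster Ifi202b stood at 530, 538, 656 and 483 CPM in the same order, and in other macrophages at 128, 164, 140 and 166. Without cluster 9, chosen for removal after the data were seen, 1 member (Ifi211, 0.50) stayed past the fold with IACS-70654 and 3 (Ifi204, Ifi211 and Mndal) with both drugs against anti-PD1. Of the members no longer past the fold with IACS-70654, Ifi203 went from 0.55 to 0.47, Mndal from 0.53 to 0.44 and Ifi209 from 0.70 to 0.44.

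Other tumor classes varied. Over the 7 classes, 24 of 42 member-by-class ratios (57.1%) were higher and 1 lower with IACS-70654, against 14.8% of all gene-by-class ratios higher. With both drugs against anti-PD1, 26 of 44 (59.1%) were higher and none lower, against 14.5%. In tumor monocytes Ifi203 (155 to 230 CPM, 0.56) and Mndal (287 to 417, 0.54) were past the fold with IACS-70654, where 19.6% of genes were higher, and none was with both drugs against anti-PD1, where 15.7% were. In tumor neutrophils Ifi202b went from 40.0 to 96.0 CPM (1.26), Ifi207 from 49.6 to 115 (1.22) and Mndal from 32.0 to 93.6 (1.55), on 20 to 48 UMIs each, where 17.5% of genes were higher. Macrophage genes in the same cells differed among themselves, with C1qa at 6.51% and 8.08% of the macrophage level, Apoe at 9.27% and 10.2%, Lyz2 at 6.49% and 19.5% and Cd74, which other cells share, at 5.28% and 31.4%. Their part was not tested. In T and NK cells 4 of 6 members were past the fold with IACS-70654, where 16.9% of genes were higher, Ifi202b at 1.11 (56.8 to 122 CPM) among them. Another of the 4, Ifi207, turned to -0.05 when cells were assigned to classes from marker scores. Macrophage RNA was higher in these cells between the same libraries, with C1qa at 35.6% and 58.3%, Mertk at 36.0% and 77.9% and Ifi202b at 41.4% and 65.1% of the macrophage level, and its part was not tested. Dendritic cells, 34 with vehicle, had 2 of 6, where 16.1% of genes were higher. Fibroblasts, with 46 and 42 cells, had the only lower value, Ifi203 at 237 and 165 CPM (-0.52, -0.99 to -0.06), where 18.2% of genes were lower.

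In BM each group had 2 libraries and edgeR's quasi-likelihood test was run over all genes, with Benjamini-Hochberg adjustment. Its p values and SEs rest on the spread between libraries, estimated in part over all genes together. That spread may be technical and need not hold the spread between mice. An SE was derived from the log2 change and the F statistic of its test. A call needed an adjusted p below 0.01 together with a log2 change of more than 0.5 either way. With IACS-70654 against vehicle, 10 values rose and 1 fell of 40 member-by-class tests in 9 CD45+ classes, so 32 of 72 possible values were too low to test. Over all genes 8.54% of gene-by-class values were called in either direction. Unadjusted p was under 0.05 for 16 higher and 3 lower values.

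Mature neutrophils showed the change most clearly for Ifi202b. It had 15.5 and 18.3 CPM in the 2 IACS-70654 libraries, 5.42 and 5.12 with vehicle and 4.44 and 4.35 in ctrl, so that the IACS-70654 libraries stood apart from the other 4. The log2 change was 1.46 ± 0.14 (SE, adjusted p = 3.87e-16), on 169 and 246 UMIs against 65 and 75. Ifi211 had 3.4 and 4.6 CPM with IACS-70654 and 0.917 and 1.57 with vehicle (1.43 ± 0.29, adjusted p = 1.38e-05). Mndal had 13.2 and 11 CPM against 7.58 and 6.69, with 8.69 and 10.5 in ctrl (0.53 ± 0.14, adjusted p = 0.00126), a call that was lost without vehicle replicate 2 (0.42) or IACS-70654 replicate 1 (0.41). The other 4 members tested had log2 changes between -0.26 and 0.21 and were not called. In this class 10.7% of all genes rose. Ifi202b was the least alike of the members to Ifi203 over classes, and here too Ifi203 did not follow it, with 4.32 and 3.27 CPM against 3.67 and 3.07.

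Mature neutrophils of the treated mice lay in other clusters, 3 and 4 instead of 0, 2 and 5, so the class compares different neutrophil states. Over 6 monocyte markers, all with UMIs, the summed level in mature neutrophils was 171 and 176 CPM with IACS-70654, 348 and 351 with vehicle and 429 and 401 in ctrl. The sum of the macrophage list was 42.5 and 36.4, 73 and 73.4, and 104 and 119 CPM in ctrl, vehicle and IACS-70654. The part of either list in the member values was not tested.

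In monocytes, only Mndal was called. It had 714 and 697 CPM with IACS-70654, 459 and 474 with vehicle and 589 and 566 in ctrl, a log2 change of 0.60 ± 0.04 (adjusted p = 1.16e-12), where 2.54% of genes rose. Ifi203 followed with 270 and 259 CPM against 183 and 206 (0.45 ± 0.05, adjusted p = 3.12e-07), short of the size asked for. Ifi207 and Ifi209 were lower at adjusted p of 0.00768 and 0.00907 but by only -0.27 ± 0.07 and -0.31 ± 0.08. Ifi202b did not differ beyond error, at 161 and 152 against 161 and 172 CPM (-0.08 ± 0.06). Members did not share 1 direction in these cells. The summed monocyte markers of these cells were also lower with IACS-70654, at 4580 and 4390 CPM against 6060 to 6240 in the other libraries, and the neutrophil progenitor list was higher, at 7330 and 7710 against 4710 and 4940 with vehicle. The part of this shift in the member values was not tested.

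**Figure D5:**
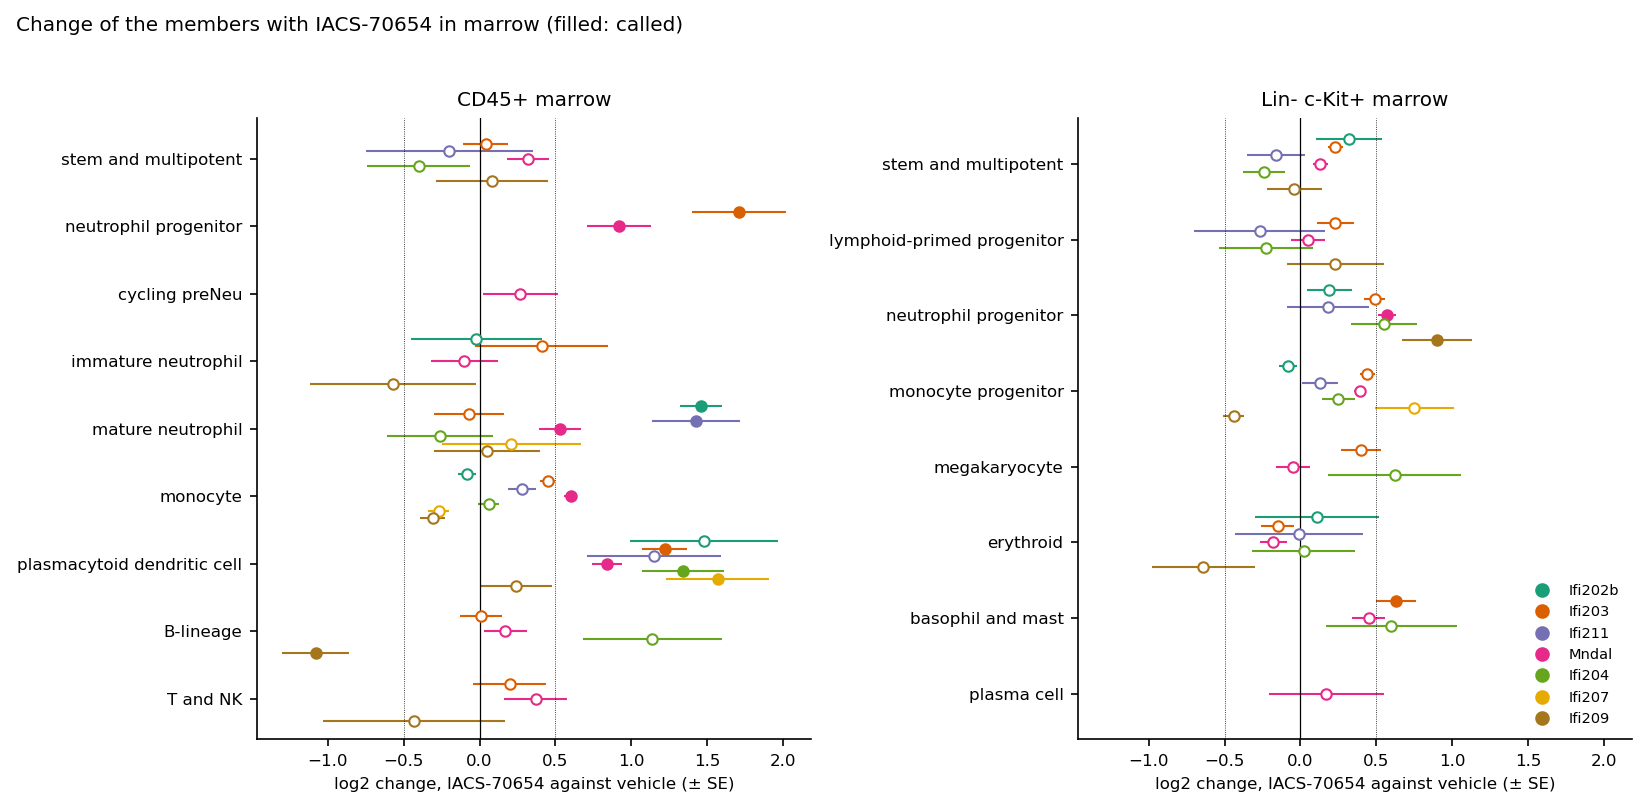
Log2 change (edgeR, with SE) of each tested member in BM classes, IACS-70654 against vehicle, with called values marked. Ifi202b is called in mature neutrophils at 1.46 and is close to 0 in monocytes, where Mndal is called at 0.60.

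The difference between the 2 cell types was tested directly, as the class-by-group interaction. Mature neutrophils of the 2 groups lay mostly in different clusters, so the test also compares different neutrophil states. The effect of IACS-70654 on Ifi202b was larger in mature neutrophils than in monocytes by 1.52 ± 0.15 on the log2 scale (adjusted p = 1.21e-13), and that on Ifi211 by 1.13 ± 0.29 (adjusted p = 0.00164). The same difference was called for 10.4% of genes in either direction. Effects on Mndal differed by -0.10 ± 0.15 and on Ifi203 by -0.54 ± 0.23 (adjusted p = 0.0727), neither called. Between mature neutrophils and B-lineage cells 0 members were called by edgeR and 9.89% of genes were, with 5 members at an unadjusted p under 0.05. Between stem and multipotent cells and neutrophil progenitors of HSPCs 0 members were called and 2.04% of genes were, although Mndal differed by -0.45 ± 0.07 (adjusted p = 3.99e-07), short of the size asked for, and 4 members had an unadjusted p under 0.05.

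In pDCs 4 members rose, where 1.14% of all genes did. Ifi203 had 358 and 403 CPM with IACS-70654, 141 and 188 with vehicle and 186 and 212 in ctrl (1.22 ± 0.15, adjusted p = 2.32e-06). Mndal had 865 and 875 CPM against 453 and 521, with 474 and 482 in ctrl (0.84 ± 0.10, adjusted p = 2.35e-06). Ifi204 had 75 and 70.7 CPM against 28.2 and 29.5 (1.34 ± 0.27, adjusted p = 0.00157), and Ifi207 had 80.7 and 83.9 against 11.3 and 44.2 (1.57 ± 0.34, adjusted p = 0.00335). For all 4 the IACS-70654 libraries lay above every other library. The call of Ifi207 was lost without vehicle replicate 1 (0.89), and that of Ifi204 without either vehicle replicate (1.29 and 1.37). Ifi202b, at 34 and 28.8 against 3.76 and 18.4 CPM, and Ifi211, at 22.6 and 38.4 against 13.2 and 14.7, were not called (adjusted p = 0.062 and 0.118), and Ifi209 was at 0.24. These pDCs numbered 62 to 131 per library. Their own 6 markers summed to 7000 and 6370 CPM with IACS-70654 against 9110 to 9580 elsewhere, which was not tested as a cause. All 4 calls were lost when cells were assigned to classes one by one from marker scores, with log2 changes of 0.76, 0.57, 0.83 and 2.27 for Ifi203, Mndal, Ifi204 and Ifi207.

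Neutrophil progenitors among CD45+ cells had 2 members high enough to test, and both rose. Ifi203 had 14.6 and 12.1 CPM with IACS-70654 and 2.65 and 4.71 with vehicle (1.71 ± 0.31, adjusted p = 4.52e-05), but 19.2 and 13.6 in ctrl, so that vehicle was the group that stood apart. Mndal had 26.8 and 28 CPM against 16.8 and 10.6 (0.92 ± 0.21, adjusted p = 0.00119), and 0.60 without vehicle replicate 2, which was not called. Its lowest library was a ctrl library, at 8.59 CPM, so for Mndal vehicle did not stand apart. Of all genes in this class 2.30% rose. The vehicle values rest on 6 and 12 UMIs of Ifi203. At a finer clustering the change of Ifi203 was 0.59 and that of Mndal 0.47, and neither was called.

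The 1 value that fell was Ifi209 in B-lineage cells. It had 54.1 and 50.9 CPM with IACS-70654, 96.4 and 129 with vehicle and 113 and 111 in ctrl (-1.08 ± 0.22, adjusted p = 0.00221), where 4.61% of genes fell. Ifi203, at 168 and 175 against 165 and 186 CPM, and Mndal, at 219 and 254 against 218 and 220, did not fall with it. Ifi214, which shares its 3′ end with Ifi209, fell as well, by 1.41 ± 0.25 (adjusted p = 0.000826), and reads of the windows they share cannot be told apart. The IACS-70654 libraries had only 52 and 107 B-lineage cells, of which 36 and 81 lay in 1 cluster with plasma cell genes, against 8 and 12 of 163 and 182 with vehicle, so the class lay mostly in different clusters in the 2 groups. Their B-lineage markers were lower, at 7140 and 7180 against 10200 and 9720 CPM, and their neutrophil progenitor genes higher, at 2150 and 1230 against 332 and 306 CPM. The call was lost without vehicle replicate 2, without IACS-70654 replicate 2 and without the top doublet scores, at log2 changes of -0.86, -1.12 and -0.95.

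In HSPCs, 3 values rose and none fell of 37 tests in 8 classes, where 5.85% of gene-by-class values were called. Unadjusted p was under 0.05 for 13 higher and 2 lower values, and 8 higher and 1 lower had an adjusted p under 0.01 whatever their size. In neutrophil progenitors Mndal had 76.3 and 81.5 CPM with IACS-70654, 51.4 and 49.2 with vehicle and 65.4 and 68.5 in ctrl (0.57 ± 0.06, adjusted p = 4.62e-11). Ifi209 in the same cells had 5.75 and 4.69 CPM against 2.91 and 2.37 (0.90 ± 0.23, adjusted p = 0.00179), and its change was 0.05 at a finer clustering. That call was lost without either vehicle replicate (1.12 and 0.82) or IACS-70654 replicate 1 (0.71). Of all genes in this class 3.31% rose. These cells were spread differently over clusters by group. With IACS-70654 cluster 4 held 349 and 207 cells, against 861 and 340 with vehicle, and cluster 5 held 651 and 375 against 410 and 180. The class therefore compares different mixes of progenitor states. In basophil and mast cell progenitors Ifi203 had 109 and 150 CPM against 74.2 and 75.3 (0.63 ± 0.13, adjusted p = 0.000127), where 4.21% of genes rose. Here too the clusters differed, as cluster 11, led by Prss34 and Mcpt8, held 82 and 47 cells with IACS-70654, against 515 and 205 with vehicle, and cluster 14, led by Gzmb and Scin, 181 and 105 against 153 and 78. Without IACS-70654 replicate 2 it was 0.41 and not called. The macrophage list in those cells summed to 403 and 295 CPM with IACS-70654 and 1130 and 1070 with vehicle, and its part was not tested.

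In HSPC monocyte progenitors no member was called with IACS-70654. Mndal had 281 and 295 CPM with IACS-70654 against 210 and 223 with vehicle (0.39 ± 0.04, adjusted p = 4.54e-15), and Ifi203 123 and 123 against 86.4 and 93.1 (0.44 ± 0.05, adjusted p = 1.28e-11). Ifi207, low in these cells, was at 4.23 and 5.76 against 2.41 and 3.63 CPM (0.75 ± 0.26, adjusted p = 0.021). Ifi209 went the other way, with 42.3 and 44.4 against 56.6 and 58.2 CPM (-0.44 ± 0.07, adjusted p = 8e-07). Ifi202b did not differ beyond error, at 63.7 and 59.8 against 63.2 and 66.6 CPM. In stem and multipotent cells Ifi203 was at 0.23 ± 0.05.

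Vehicle-treated tumor-bearing mice differed from ctrl in few members, in a comparison where tumor and vehicle dosing cannot be told apart. With vehicle against ctrl, 1 of 40 values in CD45+ cells was called, where 2.68% of gene-by-class values were, and 1 of 37 in HSPCs, where 0.867% were. The first was Ifi203 in neutrophil progenitors, which fell by 2.06 ± 0.36 (adjusted p = 6.61e-05). The second was Ifi202b in monocyte progenitors, at 63.2 and 66.6 CPM with vehicle and 44 and 45 in ctrl (0.50 ± 0.08, adjusted p = 1.37e-07), and it fell short of the size asked for without ctrl replicate 1 (0.49) or vehicle replicate 2 (0.48). Mndal was at -0.32 ± 0.04 in monocytes (adjusted p = 7.45e-06) and at -0.41 ± 0.09 in HSPC neutrophil progenitors (adjusted p = 0.00119), both short of the size asked for. Both comparisons use the vehicle libraries, so a low vehicle value enters each.

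Summed over the named classes of a CD45+ library, the 8 members had 340.7 and 370.2 CPM in ctrl, 170.2 and 161.9 in the vehicle group and 342.4 and 334.4 in the IACS-70654 group. Monocytes numbered 341 and 366, 277 and 293, and 529 and 660 in these groups. B-lineage cells numbered 705 and 727, 163 and 182, and 52 and 107. Such a sum mixes the number of cells of a type with the level within it. Within monocytes the 8 members had 1336 and 1356 CPM, 1165 and 1250, and 1507 and 1457 in the same order. Within B-lineage cells they had 588.5 and 604.8 CPM, 496.6 and 565.6, and 492.7 and 536. The part of each in the sums was not tested. In HSPC libraries the sum was 218.9 and 238 CPM, 265.1 and 289.4, and 308.6 and 331.6 in the same order. In tumors it was 526.2 CPM with vehicle, 1030 with IACS-70654, 455.9 with anti-PD1 and 1018 with both drugs. Macrophages there numbered 646, 2398, 476 and 2297 in that order. Within macrophages the members had 956.5, 1335, 1024 and 1447 CPM, and within tumor epithelial cells 76.27, 452.2, 51.08 and 527.7.

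The interferon-response list was set beside the members in BM, with no test between list and members. In mature neutrophils, where Ifi202b rose and 10.7% of all genes did, 2 of 36 list genes rose and 6 fell with IACS-70654 (median log2 change -0.14), from Ifit2 at 0.94 to Isg20 at -1.03. Of all genes in this class 952 of 11600 fell. In monocytes, where 2.54% of genes rose, 9 of 37 rose and none fell (median 0.25), with Rsad2 at 1.49 and Oas2 at 0.59. In pDCs, where 1.14% of genes rose and 215 of 8506 fell, 5 of 25 rose and 1 fell (median 0.43), with Ifih1 at 2.42 and Bst2 at -0.55. HSPC monocyte progenitors, where 3.05% of genes rose, had 10 of 31 higher and none lower (median 0.34). HSPC neutrophil progenitors, where 3.31% rose and 440 of 11918 fell, had 7 of 29 higher and 1 lower (median 0.38). With vehicle against ctrl, 11 of 36 rose in mature neutrophils, where 4.79% of genes did, and 7 of 37 fell in monocytes, where 0.412% did. Among transducers Irf8 fell by 0.53 in monocytes and by 0.54 in pDCs with IACS-70654. Of the other cluster genes, Aim2 rose in cycling preNeu (1.11 ± 0.23) and immature neutrophils (0.93 ± 0.18), where no member was called. Both classes were spread differently over clusters with IACS-70654. Immature neutrophils numbered 140 and 145 in cluster 1 and 709 and 953 in cluster 6, against 728 and 856 and 65 and 82 with vehicle. Cycling preNeu numbered 83 and 92 in cluster 7, 150 and 177 in cluster 9 and 149 and 210 in cluster 17. With vehicle these clusters held 385 and 510, 179 and 207, and 33 and 35.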

How the data were processed

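Single-cell libraries, 16 in all, came from 2208L tumors and BM and used 10x 3′ chemistry and CellPlex tags. Per the file headers, the authors made the raw counts of UMIs per gene and cell with Cell Ranger (7.1.0 for tumors, 7.2.0 for BM) and deposited them without normalization. The genome build, mm10, and Seurat are named in the submitters' processing notes. UMIs at the 3′ end do not scale with gene length, and how the counting split reads between genes that share 3′ sequence is not given in the sources used here.

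Cells with 200 to 6000 genes and at most 10% mitochondrial UMIs were kept. The study states its limits as read counts and adds a UMI criterion, which was not used here. Each sort was clustered without integration (scanpy 1.11.5, leidenalg 0.10.2, 2000 variable genes, 30 components, 20 neighbors, resolution 1), and clusters were named from marker lists, so class names are rebuilt and may differ from those of the study. Doublets were scored and kept, and an alternative left out the top 5% of scores. Classes with at least 20 cells in each library of a sort were used, 9 in CD45+ BM, 8 in HSPCs and 7 in tumors. UMIs were summed per library and class. In BM the sums were tested across all genes by the quasi-likelihood method of edgeR 4.0.16 (R 4.3.3), after filterByExpr and TMM, with 3 groups in 1 fit and Benjamini-Hochberg adjustment, and DESeq2 1.42.0 was an alternative. With 1 library per tumor condition, CPM ratios are given exact conditional binomial intervals, and shares have exact Clopper-Pearson intervals. All intervals cover counting error only.

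The members and the gene lists were chosen with earlier results of these data known. The text names the 8 members throughout, at most 4 genes of each list per comparison (largest and smallest change among those called) and the 3 genes most like each member, apart from some genes that are not reported here. Lists were interferon-response genes, receptors and transducers, DNA sensing and inflammasome genes, other genes of the cluster, interferon genes and the drug targets. Promoter sequences are from RefSeq. Alternatives were the test, size factors, filters, classes, doublets, the replicate block and leaving out each library.

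Replicate numbers were not taken to pair the BM libraries. In the classes looked at, deviations of same-numbered libraries from their group means correlated between -0.021 and 0.0478. Deviations that are counting noise would give such values either way, so this cannot show whether the libraries were paired.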

Additional observations from a re-analysis of the deposited data

Results flagged for a closer look

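Among the members, 2 responses to IACS-70654 differed between cell types of CD45+ BM by a test of the difference itself, which called 10.4% of all genes in either direction. Ifi202b rose in mature neutrophils, from 5.42 and 5.12 to 15.5 and 18.3 CPM, and not in monocytes, at 161 and 172 against 161 and 152 CPM, and the 2 effects differed by 1.52 ± 0.15 on the log2 scale (SE, edgeR, adjusted p = 1.21e-13). The difference lay between 1.35 and 1.65 when each library of the 2 groups was left out in turn. Mature neutrophils of the 2 groups lay mostly in different clusters, so the test also compares different neutrophil states. For Ifi211 the effects differed by 1.13 ± 0.29 (edgeR, adjusted p = 0.00164), from 0.909 to 1.49 with 1 library left out, and without IACS-70654 replicate 2 the adjusted p rose to 0.0701. Ifi211 shares 77.4% of its 3′ windows with other genes, Ifi205 above all, whereas Ifi202b shares none.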

How the results depend on the processing

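With DESeq2 in place of edgeR, the calls with IACS-70654 against vehicle went from 11 to 6 in CD45+ BM and from 3 to 1 in HSPCs, and with vehicle against ctrl from 1 to 0 in CD45+ BM. At Leiden resolution 2, CD45+ BM had 5 calls with IACS-70654 and 2 with vehicle against ctrl. With classes from each cell's marker score, HSPCs had 9. Without the top 5% of doublet scores the 1 HSPC call with vehicle against ctrl became 0. Leaving out 1 library gave 8 to 10 calls in CD45+ BM and 2 to 4 in HSPCs with IACS-70654, and 0 to 1 in HSPCs with vehicle against ctrl (0 without ctrl replicate 1 or vehicle replicate 2). Of the 2 differences between cell types, 1 to 2 were called, 1 without IACS-70654 replicate 2. With at least 10 UMIs, or at least 1 UMI in each library, in place of 50, anti-PD1 against vehicle had 16 ratios past the fold instead of 9. Without thinning, shares of tumor epithelial cells were 9.07% and 38.2% for Ifi202b and 9.57% and 30.2% for Mndal with vehicle and IACS-70654. Direction turned for Ifi207 in tumor T and NK cells with IACS-70654 (-0.05 with classes from marker scores) and in tumor epithelial cells with anti-PD1 (0.23 without top doublet scores). The cause of these changes was not tested. Ifi202b in mature neutrophils and Mndal in monocytes were called under every alternative run. Of 207 settings for the 16 values named as called in BM, 168 kept the call, 39 lost it and 0 turned direction. Of 428 for 60 tumor ratios, 409 stayed within counting error, 17 moved and 2 turned.

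With the replicate number as a block, CD45+ BM had 11 calls and HSPCs 3 with IACS-70654, and each had 1 with vehicle against ctrl. The block changed no count of calls, and whether the numbers pair the libraries is not known. Other size factors shifted the median gene by at most 0.0164 (log2). Depth limited Ifi213, with at most 35 UMIs in the tumor epithelial cells of a library, and classes under 100 cells, such as pDCs with vehicle.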
